A study of Mus musculus with 12 samples.

Results

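The genes described here are 38 mouse genes of glucose breakdown, listed by name: transporters, the enzymes of glycolysis, lactate formation and export, pyruvate entry into mitochondria and its oxidation, the kinases that restrain that oxidation, and the pentose phosphate pathway. Each was found by its symbol in the files of all 12 libraries, among 20883 genes that could be matched over the files, and all 38 passed edgeR's filter on low counts, which left 11707 genes for testing. The libraries are bulk RNA sequencing of regulatory T cells (Treg), sorted as live CD45+ CD4+ cells positive for EGFP under Foxp3 control and for CD69, a marker of activation and tissue residence. The mice were DEREG mice, of the C57BL/6 strain Tg(Foxp3-DTR/EGFP)23.2Spar/Mmjax, in which an artificial chromosome with Foxp3 control regions drives a fusion of EGFP and the diphtheria toxin receptor. The labels name no toxin treatment and give no age. Every mouse had a ligated inferior vena cava, a flow reduction model of deep vein thrombosis, with the thrombus seen by ultrasound, and cells were taken at day 14 from the clot, the wall of the vein and the spleen. All 3 groups therefore share the transgene, the operation and the CD69 gate, and spleen is the reference. There are 4 libraries per tissue, and the labels leave unsaid how many mice went into each, so the p-values rest on a spread between samples that may be partly technical.

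Glucose enters T cells through the carriers GLUT1 and GLUT3, is trapped by hexokinase, and is split and oxidised to pyruvate, which either becomes lactate or enters mitochondria through a carrier and is turned into acetyl-CoA by the pyruvate dehydrogenase complex. Pyruvate dehydrogenase kinases switch that complex off, and the pentose phosphate branch makes NADPH and ribose. Many of these genes are targets of the hypoxia-inducible factor HIF-1 and of MYC, and Treg are known for relying more on mitochondrial oxidation than effector T cells do, while using glycolysis to proliferate and migrate.

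Total exon reads per library ran from 9719151 to 55386086, and a count of 0 allows up to 0.0542 to 0.309 CPM (counts scaled to the size of the library), taken as 3 reads. These limits cover counting error only, since the libraries carry no molecular identifiers. By their layout and gene models the files form 3 sets. Spleen 1 and thrombus 1 are in set 1, thrombus 2, spleen 2 and vein wall 1 in set 2, and the other 7 libraries in set 3. Vein wall has no library in set 1. Spleen 3 and spleen 4 differed little more than counting noise allows, as did vein wall 3 and vein wall 4, so each pair was summed and counted as 1 sample, which leaves 3 spleen, 4 thrombus and 3 vein wall samples. The 8 genes of the sort and of Treg identity were present in all 3 tissues, with summed levels from 4450 to 6660 CPM. Markers of other cells were uneven: the 10 dendritic cell genes, MHC class II among them, summed to 11800 CPM in thrombus 2 and 12700 in vein wall 1, against 1190 to 3150 in the other 8 samples. The 11 macrophage and monocyte genes summed to 1760 CPM in thrombus 2 and to 23.7 to 267 in the other 9. Of 9 fibroblast genes, Col1a2, Col3a1, Pdgfra and Fn1 had no read in spleen, and the list summed to 0.107 to 0.453 CPM in spleen, 10 to 51.8 in thrombus and 30.0 to 72.4 in vein wall. The 9 pancreatic acinar genes summed to 0.492 to 5.73, 4.48 to 447 and 59.1 to 176 CPM, with Cela3b at 0 in spleen and Prss1 at 0 in the other 2 tissues.

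None of the 38 genes passed the test in any of the 3 comparisons (edgeR quasi-likelihood test, Benjamini-Hochberg adjusted p under 0.05 over all 11707 genes). The share of all genes that passed was 0.145% for thrombus against spleen, 0.111% for vein wall against spleen and 0% for thrombus against vein wall. At an unadjusted p under 0.05, 1 of the 38 genes was reached in thrombus against spleen, where 4.13% of all genes were, 1 in vein wall against spleen, where 5.46% were, and 0 in thrombus against vein wall, where 2.9% were. That gene was Hk2 both times. DESeq2 also called none of the 38. With the set of files as a covariate, 0 of 38 passed in each comparison, beside 0.453%, 0.41% and 0% of all genes. In that fit 1 of the 38 had an unadjusted p under 0.05 in thrombus against spleen (Hk2, beside 6.78% of all genes), 1 in vein wall against spleen (Mpc1, beside 7.82%) and 0 in thrombus against vein wall (beside 4.2%). The cells are measured in bulk, so fewer cells of a type and less RNA per cell cannot be told apart in any value below.

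The log2 fold change of thrombus against spleen was above 0 for 25 of 38 genes, with a median of 0.18, beside a median of 0.03 and 52.1% above 0 over all genes tested. Against spleen, vein wall had 23 genes above 0 and a median of 0.13, beside -0.01 and 49.0% for all genes. That median was -0.03 without vein wall 1 and -0.08 with the 12 libraries taken separately. Thrombus against vein wall had 17 genes above 0 and a median of -0.03, beside 0.04 and 52.3%. The 3 comparisons share samples, so their values are not independent. In thrombus 5 of 38 genes were above spleen in each of the 3 sets, beside 13.5% of all genes, and 1 was below in each, beside 15.7%. In vein wall 15 of 38 were above spleen in both sets that allow the comparison, beside 26.3% of all genes, and 8 were below in both, beside 29%. The 5 were Hk2, Slc16a3, Pdhb, Taldo1 and Tkt, and the 1 was Pfkfb4. No gene of the 38 separated thrombus from vein wall without overlap, where 3.84% of all genes did. The 38 genes took 5771.8 to 7793.9 CPM together in spleen, 6836.4 to 9616.2 in thrombus and 6605.9 to 9355.7 in vein wall, which overlap.

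The 95% interval of the fold change stayed within 2-fold in either direction for 13 of 38 genes in thrombus against spleen, for 9 in vein wall against spleen and for 11 in thrombus against vein wall. With the set of files as a covariate these counts were 19, 16 and 14. It stayed within 4-fold for 29, 27 and 33 genes with tissue alone, and for 29, 27 and 30 with the covariate. For Aldoa, an abundant aldolase, the interval of log2 fold change in thrombus against spleen ran from -0.67 to 0.62, while for Pfkfb4, a scarce gene, it ran from -5.45 to 0.82, both with tissue alone.

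**Figure D1:**
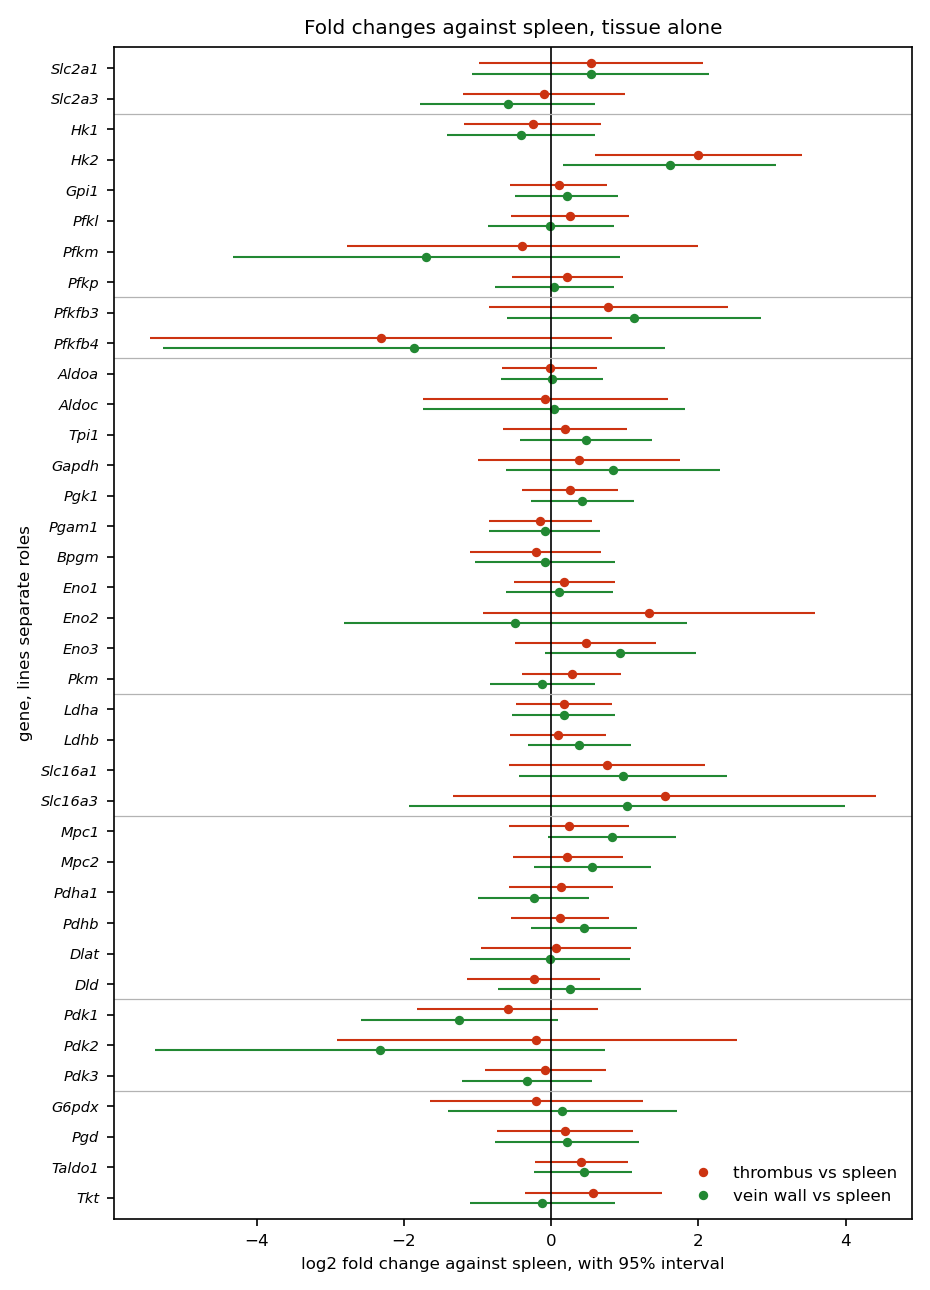
Log2 fold change of each of the 38 genes in thrombus (red) and vein wall (green) against spleen, with 95% intervals, from the edgeR fit with tissue as the only factor; grey lines separate the roles. Hk2 is the only gene whose 2 intervals both leave out 0, at 2.00 for thrombus and 1.61 for vein wall.

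Hk2 encodes hexokinase 2, the inducible isoform that binds mitochondria and commits glucose to the cell (chr6:82725025-82774454, minus strand, GRCm38). Its level was 3.71, 4.61 and 11 CPM in spleen 1, 2 and 3-4. It was 14.3, 19.5, 40.7 and 29.6 CPM in thrombus 1 to 4, and 13.6, 27.4 and 18.1 CPM in vein wall 1, 2 and 3-4. Every thrombus and every vein wall sample lay above every spleen sample, and thrombus and vein wall overlapped. Among the 38 genes Hk2 was the only one higher without overlap in thrombus, where 2.49% of all genes were. The log2 fold change was 2.00 ± 0.67 (SE; n = 4 and 3; adjusted p = 0.736, edgeR) in thrombus and 1.61 ± 0.69 (n = 3 and 3; adjusted p = 0.871, edgeR) in vein wall. Within the 3 sets of files the log2 difference between thrombus and spleen was 1.93, 2.08 and 1.65, and between vein wall and spleen it was 1.56 in set 2 and 1.02 in set 3. With the set as a covariate it was 1.88 ± 0.58 (adjusted p = 0.283) and 1.28 ± 0.62 (adjusted p = 0.646, edgeR). All reads of Hk2 matched 1 place only, in every library. Without thrombus 2 and vein wall 1, the samples rich in dendritic cell genes, with thrombus 2 also highest in macrophage genes, the values were 2.14 ± 0.68 (adjusted p = 0.507) and 1.84 ± 0.73 (adjusted p = 0.680, edgeR), an alternative chosen after seeing the data. The fibroblast and acinar genes above were also higher outside spleen, and their part in the Hk2 values was not tested.

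The promoters of Hk2 and Mpc1 are printed because these 2 genes had the smallest unadjusted p against spleen with tissue alone. That p was 0.00767 for Hk2 in thrombus and 0.0633 for Mpc1 in vein wall (edgeR). Each is the 250 bases before the RefSeq transcript start (GRCm38.p6), 5′ to 3′ on the gene's strand, Hk2 from chr6:82774455-82774704 (minus) and Mpc1 from chr17:8283537-8283786 (plus, the first of 2 RefSeq starts in the table). Capitals mark the HIF core motif ACGTG, here on the opposite strand as CACGT.
Hk2: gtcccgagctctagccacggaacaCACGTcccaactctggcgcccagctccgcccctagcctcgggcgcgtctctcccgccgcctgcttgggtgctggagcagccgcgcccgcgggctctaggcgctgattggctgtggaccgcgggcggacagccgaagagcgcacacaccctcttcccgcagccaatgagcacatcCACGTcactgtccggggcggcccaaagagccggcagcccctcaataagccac
Mpc1: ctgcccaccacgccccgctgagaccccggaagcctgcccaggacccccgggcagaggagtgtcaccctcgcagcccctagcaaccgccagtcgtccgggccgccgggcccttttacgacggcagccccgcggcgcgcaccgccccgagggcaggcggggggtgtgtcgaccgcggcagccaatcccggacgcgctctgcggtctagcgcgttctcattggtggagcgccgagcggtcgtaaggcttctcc
Hk2 held 2 matches, 226 and 52 bases before the start, and Mpc1 held none in either of its 2 windows. Searched on both strands in windows of 300 bases (250 before to 50 after the start), ACGTG was found for 18 of the 37 members with a window, which is 48.6%, and for 21.8% of all 27025 genes in the table. The longer E-box CACGTG, which contains ACGTG, was found for 5 of 37 members (13.5%) and for 8.09% of all genes. Ldha had 5 matches to ACGTG, the most of the list, with each of its 2 E-boxes counted as a match on both strands. A match describes the letters only, and none of these genes passed the test.

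Hexokinase 1, encoded by Hk1, is the constitutive isoform. Its level was 68.0, 36.7 and 54.7 CPM in the spleen samples, 72.1, 28.2, 38.5 and 39.4 CPM in thrombus, and 42.2, 30.5 and 47.2 CPM in vein wall, so all 3 tissues overlapped. Its log2 fold change was -0.25 ± 0.45 in thrombus and -0.41 ± 0.48 in vein wall (adjusted p = 1.000 and 0.965, edgeR). Per length of exon, Hk2 made up 7.24, 10.6 and 16.5% of the summed level of the 2 hexokinases in spleen, 22, 39.4, 52.5 and 44.0% in thrombus, and 23.3, 48.4 and 28.6% in vein wall. The mean share was 11.4 ± 4.67% in spleen, against 39.5 ± 12.8% for thrombus and 33.4 ± 13.2% for vein wall (SD; n = 3, 4 and 3), and the spleen samples lay below all others. In thrombus 3 alone Hk2 was the larger of the 2. Exon lengths differ between the gene models of the sets, so shares by length move with the set too; within set 3 the Hk2 share was 16.5% in spleen 3-4 and 28.6% or more in the thrombus and vein wall samples.

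**Figure D2:**
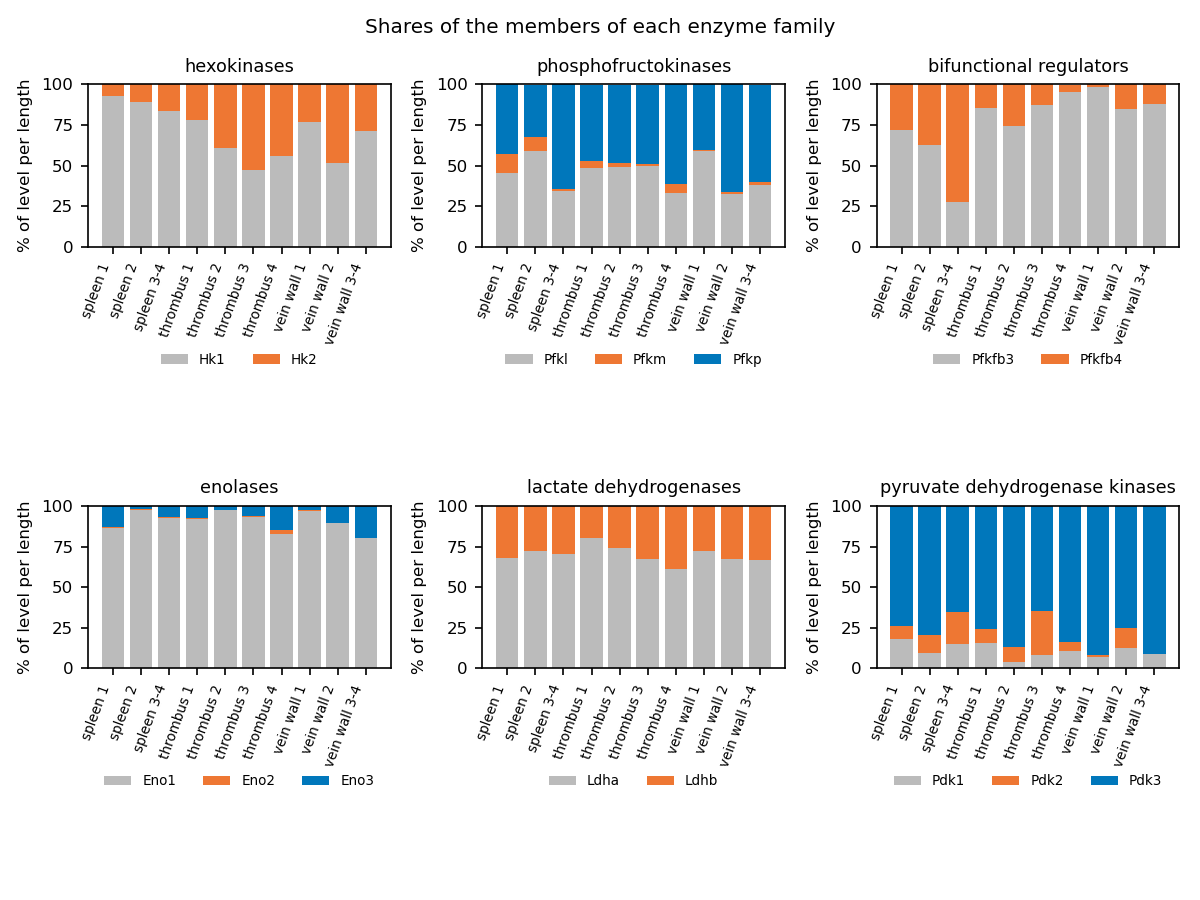
Share of each isoform in the summed level per length of its family, in percent, for 6 families in each of the 10 samples. The Hk2 share (orange, first panel) lies between 7.24 and 16.5% in spleen and between 22 and 52.5% elsewhere, and Pfkfb4 (orange, panel of bifunctional regulators) has its largest share, 72.7%, in spleen 3-4.

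The glucose transporters did not separate the tissues. Slc2a1, which encodes GLUT1, had 17.6, 1.82 and 43.3 CPM in the spleen samples, 49.7, 20.7, 22.8 and 28.4 CPM in thrombus, and 19.6, 28.5 and 43.4 CPM in vein wall. The spleen samples hold both the lowest and nearly the highest value, and the log2 fold change was 0.54 ± 0.72 in thrombus and 0.54 ± 0.77 in vein wall. Within set 2, where spleen 2 has 34 reads, thrombus was higher by 3.49 on the log2 scale, and within set 3 the difference was -0.76. Slc2a3, which encodes the high-affinity carrier GLUT3, ranged from 22.6 to 67.0 CPM in spleen, 23.2 to 57.8 in thrombus and 19.8 to 43.0 in vein wall.

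Gpi1, the isomerase that follows hexokinase, had the highest level per length of the upper pathway, with a median of 72.6 RPKM (reads per kilobase of exon, scaled to the exon reads of the library) over the 12 libraries. Its counts were 260, 196 and 251 CPM in the spleen samples, 300, 290, 240 and 185 CPM in thrombus and 355, 236 and 229 CPM in vein wall, all overlapping. Of the phosphofructokinases, which catalyse the committed step, Pfkl ranged from 51.6 to 106 CPM and Pfkp from 100 to 227 CPM over the 10 samples, with overlap in all comparisons. The muscle form Pfkm made up, of the summed level per length of the 3 genes, 7.24 ± 5.29% in spleen, against 3.55 ± 2.20% for thrombus and 1.5 ± 0.727% for vein wall. The spleen mean rests on spleen 1 and 2, at 11.5 and 8.95%. Within set 3 the share was 1.32% in spleen 3-4, 1.09 and 6.01% in thrombus 3 and 4, and 1.72 and 2.09% in vein wall 2 and 3-4. The exon length of Pfkp also differs, at 9395, 11492 and 4638 bases in sets 1, 2 and 3. Pfkm had 8.76, 8.68 and 2.94 CPM in the spleen samples, 6.88, 2.80, 1.80 and 9.26 in thrombus, and 0.886, 2.58 and 2.79 in vein wall. The vein wall samples lay below the spleen samples, with a log2 fold change of -1.70 ± 1.25 (adjusted p = 0.962, edgeR), and spleen 3-4 and vein wall 3-4 were nearly level.

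Pfkfb3 and Pfkfb4 encode the enzymes that make and degrade fructose 2,6-bisphosphate, the activator of phosphofructokinase. Both were scarce, with medians of 1.48 and 0.337 RPKM, and they differed in direction. Pfkfb3 had 10.7, 5.68 and 5.59 CPM in the spleen samples, 9.93, 3.97, 9.72 and 26.3 in thrombus, and 9.94, 22.6 and 15.2 in vein wall. The Pfkfb3 log2 fold change was 0.77 ± 0.78 in thrombus and 1.12 ± 0.82 in vein wall (adjusted p = 1.000 and 0.962, edgeR), and each overlapped spleen. Pfkfb4 had 2.24, 3.22 and 9.45 CPM in the spleen samples, 0.908, 1.29, 0.951 and 0.834 in thrombus, and 0.127, 2.63 and 1.35 in vein wall. The thrombus values rest on 14, 23, 9 and 9 reads. Vein wall 1 had 2 reads, under the limit of 3 reads, which is 0.19 CPM in that sample. All 4 thrombus samples were below all spleen samples, as were 2.5% of all genes, and the log2 fold change was -2.31 ± 1.5 (adjusted p = 1.000, edgeR). The log2 difference was -1.28, -1.30 and -3.33 within the 3 sets. Pfkfb3 made up 53.9 ± 23.5% of the level per length of the pair in spleen, against 85.6 ± 8.61% for thrombus and 90.6 ± 7.19% for vein wall, and the spleen samples, at 72.0, 62.5 and 27.3%, were the lowest of all. No test was made of the share.

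**Figure D3:**
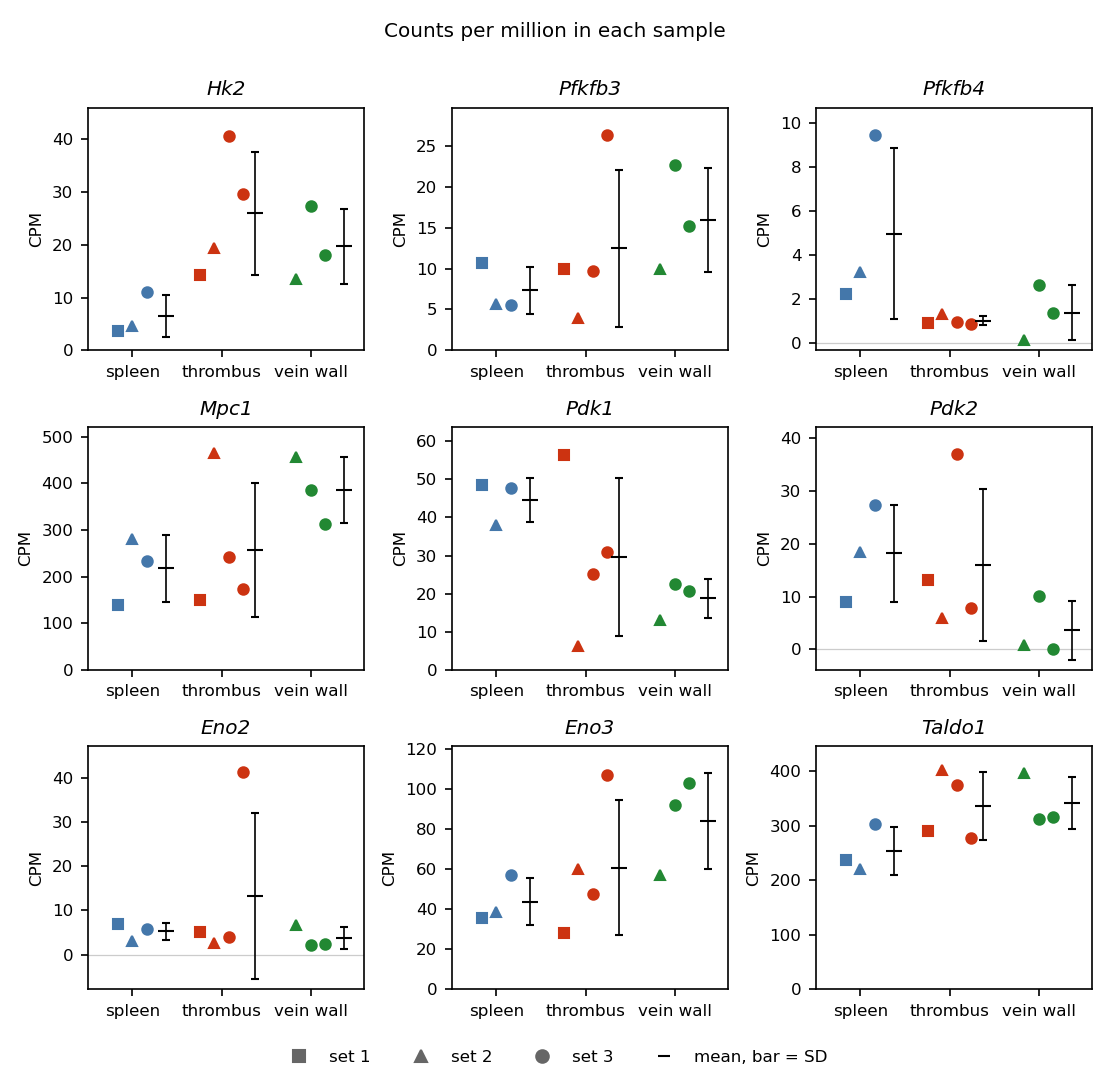
Level in CPM of 9 of the 38 genes in each of the 10 samples, by tissue (colour) and set of files (shape), with the mean and SD of each tissue in black. Hk2 is lowest in the 3 spleen samples (3.71 to 11 CPM), Pdk1 is lower in vein wall (13.0 to 22.5) than in spleen (38 to 48.4), and the thrombus mean of Eno2 rests on 1 sample at 41.3 CPM.

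Lower glycolysis, from aldolase to pyruvate kinase, held the most abundant genes, and its 11 members had a median log2 fold change of 0.19 in thrombus and 0.04 in vein wall. Eno1, the main enolase, had the highest level per length of the whole list, a median of 405 RPKM, but 21.8% of its reads matched a single place. Eno1 had 735, 1220 and 1300 CPM in the spleen samples, 1050, 1650, 1170 and 1040 in thrombus, and 1440, 1350 and 729 in vein wall. The log2 fold change was 0.18 ± 0.33 and 0.11 ± 0.35, with 95% intervals from -0.51 to 0.87 and from -0.62 to 0.84. Pkm, pyruvate kinase, had 629, 556 and 834 CPM in the spleen samples, 1060, 779, 617 and 815 in thrombus, and 810, 635 and 413 in vein wall. Thrombus against vein wall gave 0.40 ± 0.32 for Pkm (adjusted p = 0.999, edgeR), with overlap. The others of this group, the aldolases Aldoa and Aldoc, the isomerase Tpi1 and the mutase Pgam1, overlapped in every comparison and ranged from 642 to 1170, 1.82 to 25.9, 130 to 415 and 122 to 276 CPM over the 10 samples.

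The minor enolases were less even. Eno3, the muscle enolase, had 35.7, 38.4 and 57.0 CPM in the spleen samples, 28.2, 59.8, 47.5 and 107 in thrombus, and 56.7, 91.9 and 103 in vein wall. Vein wall against spleen gave 0.94 ± 0.49 (adjusted p = 0.919, edgeR), and 0.55 ± 0.44 with the set as a covariate, and vein wall 1 at 56.7 CPM overlapped spleen 3-4 at 57.0. Smooth and striated muscle genes summed to 9.32 to 38.6 CPM in spleen, 17 to 35.1 in thrombus and 31.1 to 41.9 in vein wall, and their part in Eno3 was not tested. Eno2, the neuronal enolase that HIF-1 also induces, had 6.87, 3.05 and 5.86 CPM in the spleen samples, 5.06, 2.57, 4.01 and 41.3 in thrombus, and 6.65, 2.25 and 2.37 in vein wall. For Eno2 the log2 fold change in thrombus was 1.33 ± 1.07 against spleen and 1.82 ± 1.10 against vein wall (adjusted p = 1.000 and 0.999, edgeR). Without thrombus 4 the first became -0.44 ± 1.24 and the second 0.05 ± 1.24.

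Gapdh and Pgk1 catalyse the oxidative step and an ATP-forming step of lower glycolysis, ahead of the enolases. Gapdh had 111, 564 and 626 CPM in the spleen samples, 130, 917, 592 and 610 in thrombus, and 838, 861 and 628 in vein wall. The 2 samples of set 1 were the low ones, with set 2 above set 1 by 2.58 ± 0.28 on the log2 scale and set 3 above set 1 by 2.33 ± 0.27 (adjusted p = 1.27e-05 and 3.18e-05, edgeR). Among all genes 3.91% passed for set 2 against set 1, 2.84% for set 3 against set 1 and 4.48% for set 2 against set 3. Of the 38 only Mpc1 passed besides Gapdh, at 1.27 ± 0.31 for set 2 over set 1 (adjusted p = 0.0252, edgeR). Pgk1 had 239, 257 and 196 CPM in the spleen samples, 234, 315, 333 and 222 in thrombus, and 399, 267 and 261 in vein wall. Both were among the 7 genes higher in vein wall than in spleen without overlap (18.4% of the 38, where 6.75% of all genes were), with Hk2, Ldhb, Mpc1, Mpc2 and Taldo1. For Gapdh the vein wall minimum of 628 CPM lies close to spleen 3-4 at 626, and vein wall has no sample in set 1. These Gapdh levels and set differences are on all reads, and the set differences were not tested on unique reads. Unique Gapdh reads numbered 455 and 655 in spleen 1 and thrombus 1, of 10143404 and 11292742 unique exon reads. In thrombus 3 and 4 they numbered 285 and 315, of 7689652 and 8673962. In vein wall 3 and 4 they numbered 659 and 418, of 18839733 and 15792292. Both samples of set 1 thus had a larger share than thrombus 3, thrombus 4 and vein wall 3-4. On unique reads vein wall therefore did not lie wholly above spleen for Gapdh. Of Gapdh reads, 28.9 to 32.7% matched 1 place in set 1, 8.96 to 9.59% in set 2 and 3.69 to 6.2% in set 3. On unique reads Gapdh in vein wall against spleen was 0.36 ± 0.52, beside 0.84 ± 0.67 on all reads. Bpgm, which makes the red cell regulator 2,3-bisphosphoglycerate, had 54.3, 98.8 and 47.3 CPM in the spleen samples, 51.8, 62.7, 34.5 and 81.8 in thrombus, and 72.2, 71.2 and 45.9 in vein wall. Erythroid genes summed to 1820, 63.3 and 345 CPM in the same spleen samples, to 7.01, 2040, 9.61 and 1560 in thrombus and to 2.47, 3.97 and 50.8 in vein wall, and the highest Bpgm value was in spleen 2. The part of red cells in Bpgm was not tested.

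**Figure D4:**
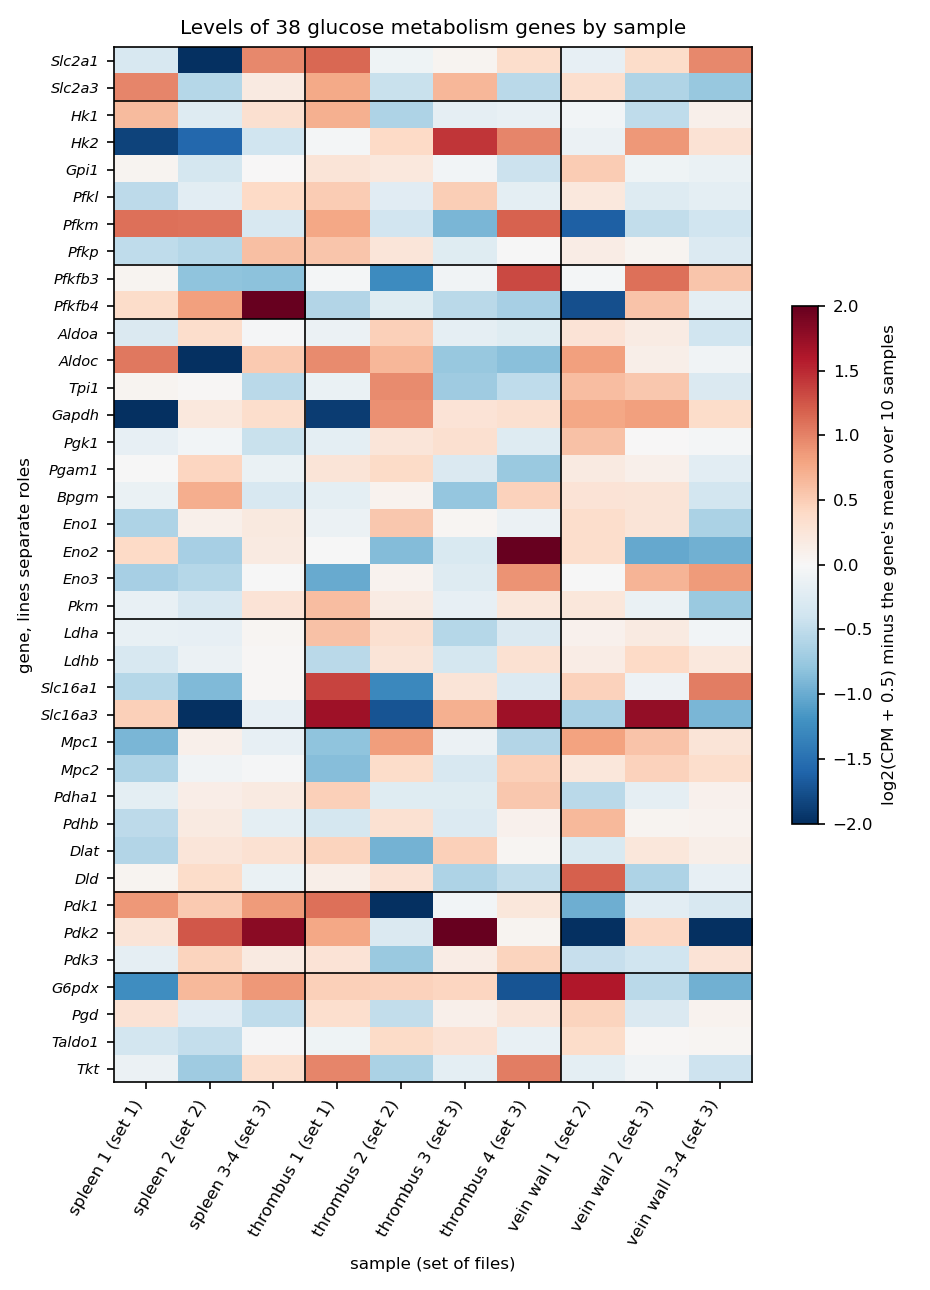
Level of each of the 38 genes in each of the 10 samples, as log2(CPM + 0.5) minus the mean of that gene over the samples; colours saturate at 2, horizontal lines separate roles and vertical lines separate tissues. Gapdh is low in the 2 samples of set 1 (111 and 130 CPM, all reads). Pdk2 is lowest in vein wall 1 and 3-4, and most rows show no block of 1 colour that follows the tissues.

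The fold changes of the lactate genes lay above 0 in both comparisons with spleen, as did 52.1% and 49% of all genes. The 4 genes had log2 fold changes from 0.09 to 1.54 in thrombus and from 0.17 to 1.03 in vein wall, and 0 of 4 passed in either. The highest was Slc16a3 both times, at 1.54 ± 1.37 and 1.03 ± 1.41, with 1 read in spleen 2. Within sets, thrombus was below spleen for Ldha in set 3 (-0.46) and for Ldhb in sets 1 and 3 (-0.21 and -0.05). Slc16a1 was below in sets 2 and 3 (-0.44 and -0.04), while Slc16a3 was above in each set. In vein wall all 4 were above spleen in both sets. Ldha, which encodes the subunit that favours lactate formation, had a median of 369 RPKM, the second highest of the list. Its counts were 866, 854 and 981 CPM in the spleen samples, 1440, 1200, 645 and 788 in thrombus, and 1020, 1090 and 926 in vein wall. The log2 fold change was 0.18 ± 0.31 in thrombus and 0.17 ± 0.33 in vein wall. Ldhb, the other subunit, had 191, 220 and 243 CPM in the spleen samples, 165, 284, 186 and 296 in thrombus, and 264, 314 and 275 in vein wall, where its samples lay above spleen (0.38 ± 0.34, adjusted p = 0.962, edgeR). Ldha made up 70.4 ± 2.09% of the level per length of the pair in spleen, against 70.9 ± 8.22% for thrombus and 68.9 ± 2.99% for vein wall. The monocarboxylate carriers Slc16a1 and Slc16a3, which export lactate, ranged from 7.99 to 52.5 CPM and from 0.0536 to 13.2 CPM over the 10 samples.

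Mpc1 and Mpc2 encode the 2 subunits of the mitochondrial pyruvate carrier. Mpc1 (chr17:8282904-8297661, plus strand, GRCm38) had 139, 280 and 234 CPM in the spleen samples, 149, 465, 242 and 174 in thrombus, and 457, 387 and 314 in vein wall. Mpc2 had 113, 166 and 172 CPM in the spleen samples, 96.4, 225, 139 and 243 in thrombus, and 203, 239 and 222 in vein wall. For each, all vein wall samples lay above all spleen samples and thrombus spanned both. Mpc1 gave 0.82 ± 0.42 in vein wall against spleen (adjusted p = 0.918, edgeR), and 0.66 ± 0.28 with the set as a covariate (adjusted p = 0.565, edgeR). Thrombus against vein wall gave -0.58 ± 0.39 for Mpc1. Only 11.5% of Mpc1 reads matched a single place, and on unique reads vein wall against spleen gave 0.63 ± 0.51. With unique reads and the set as a covariate Mpc1 gave 0.47 ± 0.49 (unadjusted p = 0.347, edgeR). Mpc2, whose reads all matched 1 place, gave 0.56 ± 0.38, and 0.30 ± 0.30 with the set as a covariate (adjusted p = 0.962 and 0.879, edgeR). The lowest spleen value of each gene was spleen 1, of set 1, which has no vein wall sample.

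The genes of the pyruvate dehydrogenase complex, Pdha1, Pdhb, Dlat and Dld, had log2 fold changes from -0.24 to 0.14 in thrombus and from -0.24 to 0.44 in vein wall, with overlap in each. On unique reads Pdha1 in vein wall against spleen was -0.67 ± 0.40 (adjusted p = 0.993, edgeR), beside -0.24 ± 0.36 on all reads. Over the 10 samples Pdha1 ranged from 92.8 to 198, Pdhb from 185 to 419, Dlat from 17.1 to 46.4 and Dld from 51.2 to 183 CPM. The kinases that switch the complex off had fold changes below 0 in both comparisons with spleen, 3 of 3 genes, and 0 of 3 passed. Of all genes tested, 52.1% were above 0 in thrombus and 49% in vein wall. In thrombus Pdk1, Pdk2 and Pdk3 gave -0.59 ± 0.58, -0.2 ± 1.26 and -0.08 ± 0.39. Within set 1 thrombus was above spleen for all 3, by 0.22, 0.54 and 0.47, and Pdk3 was also above within set 3, by 0.11. Pdk1, a HIF-1 target, had 48.4, 38 and 47.6 CPM in the spleen samples, 56.5, 6.15, 25.1 and 30.8 in thrombus, and 13.0, 22.5 and 20.8 in vein wall. The 3 vein wall samples lay below spleen, as did 2 of the 38 genes (5.26%, where 6.47% of all genes did), the other being Pfkm. Vein wall against spleen gave -1.25 ± 0.64 (adjusted p = 0.919, edgeR), with -1.55 in set 2 and -1.14 in set 3. Without thrombus 2 and vein wall 1, where dendritic cell genes were highest and Pdk1 lowest, it was -1.02 ± 0.55 (adjusted p = 0.725, edgeR).

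Pdk2 had 8.97, 18.4 and 27.4 CPM in the spleen samples, 13.1, 5.98, 37.1 and 7.78 in thrombus, and 0.886, 10.1 and 0.00 in vein wall. Vein wall 3-4 had no read, which allows up to 0.0748 CPM, while vein wall 2 lay within the spleen range. Vein wall against spleen gave -2.33 ± 1.42 and thrombus against vein wall 2.13 ± 1.36 (adjusted p = 0.961 and 0.999, edgeR). Pdk3, on the X chromosome and the most abundant kinase by length, with a median of 38.5 RPKM, had 65.5, 102 and 84.7 CPM in the spleen samples, 90.5, 44.3, 82.4 and 102 in thrombus, and 53.9, 56.5 and 90.6 in vein wall. It made up 72.9 ± 7.04%, 77.7 ± 10% and 86.1 ± 9.46% of the level per length of the 3 kinases. Together the kinases had 123 to 160 CPM in spleen, 56.5 to 160 in thrombus and 67.7 to 111 in vein wall.

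In the pentose phosphate pathway, Taldo1 and Tkt rearrange sugar phosphates and G6pdx and Pgd make NADPH. Taldo1 had 237, 220 and 303 CPM in the spleen samples, 290, 403, 374 and 277 in thrombus, and 397, 313 and 317 in vein wall. Vein wall lay above spleen without overlap and thrombus overlapped it, with 0.44 ± 0.32 and 0.41 ± 0.30 (adjusted p = 0.962 and 1.000, edgeR). Tkt had 65.4, 42.9 and 89.2 CPM in the spleen samples, 140, 45.3, 61.5 and 145 in thrombus, and 61.4, 67.6 and 53.0 in vein wall. Thrombus 1 and thrombus 4 stood above the rest, and the log2 fold change of thrombus was 0.57 ± 0.45 against spleen and 0.69 ± 0.45 against vein wall (adjusted p = 1.000 and 0.999, edgeR). G6pdx, the X-linked rate-limiting enzyme, ranged from 16.1 to 71.2 CPM in spleen, 11.4 to 54.2 in thrombus and 19.7 to 119 in vein wall. Pgd, the next dehydrogenase, ranged from 28.9 to 56.4 CPM over the 10 samples.

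Many of these genes share sequence with processed copies elsewhere in the genome, and the counts include reads that match several places. Of the 38 genes, 24 had at least 95% unique reads, 9 had 50 to 95%, and 5 had under 50%: Slc2a1, Gapdh, Eno1, Mpc1 and G6pdx. The share depended on the set of files for 9 genes, by over 20 percentage points. Pgk1 had 3.85 to 5.07% unique reads in sets 1 and 2 and only unique reads in set 3. Unique reads gave a Pgk1 log2 fold change in thrombus of 1.01 ± 1.68, beside 0.26 ± 0.31 on all reads and 0.28 ± 0.27 on unique reads with the set as a covariate. Slc2a1 was fully unique in set 2 and 23.8 to 46.9% unique in set 3, where its share was 45.9% in spleen 3-4, 33.3 and 33.2% in thrombus 3 and 4, and 39.4 and 24.2% in vein wall 2 and 3-4. Pdha1 was 51.0 to 64.3% unique in all samples but vein wall 3-4, where 26.0% was unique, and its level there was 143 CPM on all reads and 43.0 on unique reads.

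**Figure D5:**
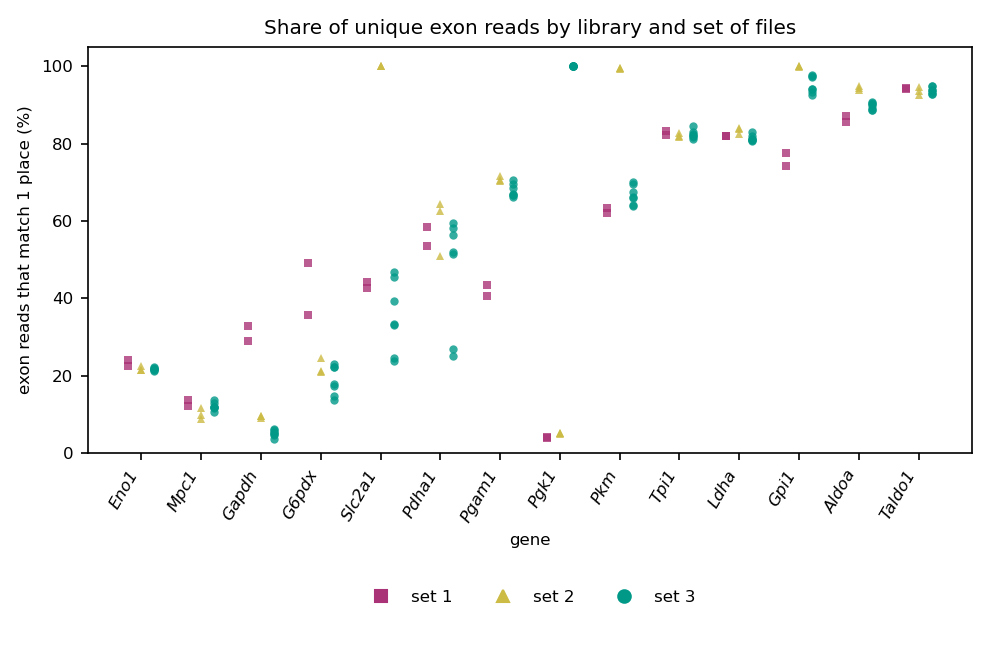
Share of exon reads that match a single place, in percent, in each of the 12 libraries for the 14 genes with under 95% unique reads over all libraries together, with the set of files by colour and shape. Pgk1 lies below all other genes in set 2, between 4.84 and 5.07%, and at the top of the axis in set 3, and Slc2a1, Pkm and Gapdh also differ by set.

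Other genes of the same pathways were taken from a list of 57 (further transporters, hexokinases, malate and aspartate shuttle, glycogen and NADPH genes), of which 43 were tested. None passed in any of the 3 comparisons in either fit, and 25 of 43 were above 0 in thrombus against spleen, beside 52.1% of all genes. Got1, the cytosolic aspartate aminotransferase of the shuttle that returns NADH to mitochondria, had 36.0 ± 23.3 CPM in spleen, against 148 ± 46.2 for thrombus and 134 ± 85.4 for vein wall (SD; n = 3, 4 and 3). The log2 fold change was 2.03 ± 0.54 and 1.90 ± 0.56 (adjusted p = 0.429 and 0.509, edgeR), beside 2.00 and 1.61 for Hk2. Pdp1, a phosphatase that opposes the kinases above, gave 1.22 ± 0.75 and the carrier Slc2a8 gave -1.25 ± 0.75 in thrombus (adjusted p = 1.000 for each, edgeR). Gsr, glutathione reductase, gave -1.30 ± 0.64 in vein wall, and -1.73 ± 0.52 with the set as a covariate (adjusted p = 0.907 and 0.283, edgeR). Slc16a7, another lactate carrier, had 3.12 ± 2.93 CPM in spleen and 0.071 ± 0.0751 in vein wall, close to the limit of detection.

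HIF targets outside the list numbered 24, of which 22 were tested. In each comparison with spleen 15 of the 22 were above 0, at medians of 0.43 and 0.45. Over all genes 52.1% and 49% were above 0, at medians of 0.03 and -0.01. Of the 22 only Hilpda, a lipid droplet protein gene, passed in thrombus and in vein wall (adjusted p = 0.00193 and 0.00241, edgeR). Among all genes 0.145% and 0.111% passed. At an unadjusted p under 0.05 (edgeR), 4 of the 22 were higher and 0 lower in thrombus, beside 4.13% of all genes. In vein wall 2 were higher and 1 lower, beside 5.46%. With the set as a covariate Hilpda alone passed again. In that fit 6 were higher and 0 lower in thrombus at an unadjusted p under 0.05, beside 6.78% of all genes. For vein wall it was 3 higher and 1 lower, beside 7.82%. Hilpda had 45.2 ± 8.35 CPM in spleen, against 266 ± 79.2 for thrombus and 282 ± 53.0 for vein wall. The chemokine receptor Cxcr4 gave 1.57 ± 0.56 and 1.47 ± 0.58 (adjusted p = 0.854 and 0.810, edgeR), and the transferrin receptor Tfrc gave 1.64 ± 0.55 in thrombus (adjusted p = 0.736, edgeR). Hmox1, heme oxygenase, had 36.2 ± 11.3 CPM in spleen and 6.26 ± 2.20 in vein wall, at -2.53 ± 0.89 (adjusted p = 0.755, edgeR).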

How the data were processed

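The genome build was GRCm38, as the submitters' processing notes give it, and the aligner is not given in the sources used here. Whole-number deposited counts of total and unique exon reads per gene, per the file headers, are not normalized, and total counts include reads with several matches. Exon length is another deposited value, per the file headers; RPKM was computed from the counts, this length and the exon reads of a library, in place of the planned use of the authors' own RPKM columns. Genes were matched over the 3 sets of files by symbol, with 110 of 20883 by a synonym. Replicate pairs gave a mean chi-square per gene of 96.8 to 355, except spleen 3 with 4 (3.96) and vein wall 3 with 4 (2.55), which were summed. Counts were tested with edgeR 4.0.16 (R 4.3.3; quasi-likelihood F test, TMM, default filter, tissue as the only factor, 10 samples) and, as alternatives, with the set of files as a covariate and with DESeq2 1.42.0. The edgeR step was tested on simulated data. CPM uses TMM library sizes. The 38 genes, the lists and the tests were chosen with earlier results of these data known. Values in every sample are given for the 5 genes of smallest p in each comparison and the most abundant gene of each role by length; those of Hk1, Pfkm, Gapdh, Pgk1, Bpgm and Ldhb were added after their values were seen. From the other lists, genes that passed and the 3 of smallest p against spleen are named. Other filters, scalings, unique reads and leaving out each sample were also tried.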

Additional observations from a re-analysis of the deposited data

Results flagged for a closer look

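Each of the 38 genes was checked for a sample far from the others among the 4 thrombus samples; chance alone would mark about 1 in 20 of the 38, and 3 were marked. Eno2 stood at 41.3 CPM in thrombus 4, against 2.57 to 5.06 in the other 3, a gap of 0.936 of the whole range. G6pdx stood at 11.4 CPM in the same sample, against 52.6 to 54.2, a gap of 0.964 of the range, with 13.8% of its reads unique. Aldoa stood at 1170 CPM in thrombus 2, against 713 to 774, a gap of 0.866. The other samples of the same set of files, spleen 2 and vein wall 1, had 1070 and 1020 CPM of Aldoa, and the other 4 spleen and vein wall samples had 642 to 941. Thrombus 4 had the highest pancreatic acinar sum (447 CPM) and thrombus 2 the highest dendritic cell and macrophage sums of its tissue (11800 and 1760 CPM), while spleen 2 had a dendritic cell sum of 1430 CPM, and the part of these, and of the set, in the 3 values was not tested.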

How the results depend on the processing

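Over 10 other settings and 10 leave-outs of 1 sample, the number of the 38 genes that passed stayed at 0 in every comparison. The smallest adjusted p of Hk2 was 0.0843 (DESeq2, thrombus against spleen), and its log2 fold change ran from 1.71 to 2.64 in thrombus and from 1.16 to 2.24 in vein wall, leave-outs with the set as a covariate included. Of 720 alternative values, 28 counts over all genes moved by over 1.5 times and 3 log2 fold changes of single genes reversed. Without thrombus 4, Eno2 reversed in thrombus to -0.44 against spleen (up to 1.70 without both thrombus 2 and vein wall 1). With the set as a covariate, leaving out thrombus 4 reversed Eno2 to -0.45 against spleen (up to 1.71 without thrombus 1). Against vein wall it became -0.15 in that fit (up to 2.94 without vein wall 1). The median of the 38 genes in vein wall against spleen, which has no test, was 0.13 and changed sign to -0.03 without vein wall 1 and -0.08 with 12 libraries separately. The count of all genes passing was 17 for thrombus against spleen, and became 53 with the set as a covariate, 49 with that and unique reads, 34 with 12 libraries, 80 without a filter and 104 with DESeq2. For vein wall against spleen it was 13, and became 48, 36, 50, 66 and 118 in the same order, and 7 on unique reads. For thrombus against vein wall it was 0, with 2 without a filter and 10 with DESeq2. Leaving out 1 sample gave 6 (without spleen 2; 8 without spleen 3-4) to 34 (without spleen 1), 5 to 28 (the same samples, with 6 without spleen 3-4), and 0 to 1 genes (without thrombus 2). With the set as a covariate it gave 35 (without spleen 2) to 55, 20 (without vein wall 1; 28 without spleen 2) to 65, and 0 to 1 (without spleen 1, spleen 2 or thrombus 2). With the replicate block on 12 libraries, 51 genes passed for thrombus and 64 for vein wall against spleen, and none of the 38. Libraries with the same number correlated from -0.07 to 0.40 in their deviations, over 0.1 in 5 of 12 pairs, each of these 5 within 1 set of files. Pairs of the same set, whatever their number, ran from -0.02 to 0.40, and pairs of different sets from -0.30 to 0.10. The numbers were therefore not taken to pair samples, and whether they do was not settled. The cause of these shifts was not tested. With 3 or 4 samples per tissue and 9719151 reads in the shallowest library, the spread between samples limits the scarce genes most.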

Other observations

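Regulators of these pathways were followed in a list of 38 transcription factors and signalling genes, of which 36 were tested. With tissue as the only factor 0 of 36 passed (edgeR). With the set of files as a covariate, 0.453% and 0.41% of all genes passed for thrombus and vein wall against spleen. In that fit 1 of the 36 passed, higher in thrombus and in vein wall than in spleen. That gene, Bhlhe40, a HIF-responsive repressor expressed by tissue T cells, had 111 ± 85.1 CPM in spleen, against 345 ± 108 for thrombus and 244 ± 14.0 for vein wall (SD; n = 3, 4 and 3). In the covariate fit thrombus lay above spleen by 1.93 ± 0.30 on the log2 scale (adjusted p = 0.00200) and vein wall by 1.76 ± 0.32 (adjusted p = 0.0143, edgeR). The values were 1.64 ± 0.43 and 1.14 ± 0.45 with tissue alone (adjusted p = 0.401 and 0.803, edgeR). The next regulators by p were named after their values were seen. Myc, which drives many glycolytic genes, gave 0.75 ± 0.36 in thrombus and 0.94 ± 0.39 in vein wall (adjusted p = 1.000 and 0.836, edgeR). Rictor, a subunit of the mTORC2 kinase, had 80.3 ± 27.6 CPM in spleen, against 43.3 ± 15.5 for thrombus and 25.4 ± 14.4 for vein wall, at -1.66 ± 0.55 in vein wall (adjusted p = 0.648, edgeR). Txnip, which restrains glucose uptake, had 214 ± 32.5 CPM in spleen and 147 ± 16.6 in thrombus, at -0.54 ± 0.26 in the covariate fit (adjusted p = 0.749, edgeR).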
